A study of Mus musculus with 12 samples.

Results

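Endothelial cells line blood vessels, and 8 genes that mark them were followed through RNA immunoprecipitation sequencing (RIP-seq) of mouse retina and cortex. They were the receptor genes Kdr, Flt1, Tek and Tie1 and the junction and adhesion genes Pecam1, Cdh5, Cldn5 and Esam. The members were chosen by symbol, and all 8 were found among the 52550 genes of the deposited tables. Transcripts bound by Ythdf1 or by Ythdf2 were recovered with antibodies, and each immunoprecipitate (IP) was sequenced beside input RNA. All groups were wild-type C57BL/6 mice with no treatment. The groups were retina Ythdf1 IP, retina Ythdf2 IP and retina input at postnatal day 0 (P0), and cortex Ythdf1 IP, cortex Ythdf2 IP and cortex input at embryonic day 12.5 (E12.5). Each group had 2 libraries, 12 in all, and the labels do not say whether replicates came from separate animals, so p-values measure the spread between these libraries. Tissue and age differed together in every comparison of retina with cortex. The protocol refers to the dissociated cells as neurons, gives no step that keeps or removes vessels, and includes no IP with an unrelated antibody, so the input was the only background.

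Ythdf1 and Ythdf2 are cytoplasmic proteins that bind mRNA carrying N6-methyladenosine (m6A). Ythdf1 is best known for promoting translation, and Ythdf2 for shortening the life of the mRNAs it binds. Vessels enter the developing nervous tissue under the lead of VEGF-A, which signals through the receptor encoded by Kdr (VEGFR2), while Flt1 (VEGFR1) binds the same ligand and holds much of it back. Tek (Tie2) is the receptor for angiopoietins and Tie1 its partner receptor. Cdh5 (VE-cadherin), Pecam1, Esam and Cldn5 hold endothelial cells together, and Cldn5 forms the tight junctions of the blood-brain and blood-retina barriers. In the mouse retina, vessels spread from the optic nerve around birth, and Kdr is also known from neural progenitors of the retina.

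The stretch of coding sequence around GGACT is shown because GGACT is a core form of the consensus of m6A, the mark that Ythdf proteins bind. Neither methylation nor binding at these sites was measured. For each gene the sequence was that of its principal annotated transcript in GENCODE M21, on the gene's own strand, with GRCm38 coordinates. The 5 bases of the motif are in capitals within a window of 25 bases. Shown is the GGACT nearest the end of the coding sequence whose whole window lay in a single exon and in the coding sequence.
Kdr, chr5:75934480-75934504, minus strand, exon 30 of 30: cgacgaggcaGGACTtttaaagatg
Flt1, chr5:147564361-147564385, minus strand, exon 30 of 30: caaggaggcgGGACTttccgatctg
Tek, chr4:94859047-94859071, plus strand, exon 17 of 23: cccgggggatGGACTacttgagcca
Tie1, chr4:118475554-118475578, minus strand, exon 17 of 23: gaaacctactGGACTtcctgagaaa
Pecam1, chr11:106715023-106715047, minus strand, exon 2 of 16: cctggctctgGGACTcacgctggtg
Cdh5, chr8:104142722-104142746, plus strand, exon 12 of 12: cctggcgcctGGACTgcacggaggg
Esam, chr9:37534258-37534282, plus strand, exon 3 of 7: ggagactctgGGACTtaccgctgtt
The Kdr and Flt1 windows, both in the last exon, were identical at 17 of 25 positions, and those of Tek and Tie1 at 12. These counts include the 5 motif bases, which match by construction.

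The coding sequences held 7 copies of GGACT in Kdr, 7 in Flt1, 7 in Tek, 3 in Cdh5, 2 in Tie1, 2 in Esam, 1 in Pecam1 and 0 in Cldn5. Per kilobase this was 2.08 in Tek, 1.75 in Flt1, 1.73 in Kdr, 1.69 in Esam, 1.28 in Cdh5, 0.588 in Tie1, 0.455 in Pecam1 and 0 in Cldn5, against a median of 1.03 over 21901 mouse coding sequences, of which 71.4% held at least 1 copy. Cldn5, whose coding length is 654 bases, held 2 copies elsewhere in its transcript. A match describes the letters only; methylation was not measured.

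The library labelled cortex input replicate 1 stood apart and is given separately. It held 8967 counts of Camk2a, a kinase gene of mature neurons, and 3984 of Mbp, a myelin gene. Of the progenitor gene Nes it held 145 counts, and of Mki67, which marks dividing cells, 45. Cortex input replicate 2 held 237 counts of Camk2a, 281 of Mbp, 19126 of Nes and 10931 of Mki67. All comparisons therefore used the other 11 libraries, with cortex input as a single library that was assumed to vary like the other groups. Library totals ran from 19530226 to 40515980 counts over the 12 libraries. Protein-coding genes took 8.37% to 11.5% of counts in the retina and 10.4% to 41.1% in the 5 other cortex libraries, against 4.65% in the library set apart. The tissues carried their own markers: 7 of 10 retina genes were higher in retina input and 9 of 10 E12.5 cortex genes lower, with 2 higher and 4 lower among 10 progenitor and cell-cycle genes and 1 and 1 among 9 mature brain genes tested. Levels are normalised CPM, which is read counts scaled to library size, corrected with the trimmed mean of M values (TMM), and 3 counts, the floor used for genes at 0, equal 0.0326 to 0.397 CPM.

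The make-up of the summed counts of the 8 genes differed between the tissues. Which cells the counts of each gene came from was not tested. Kdr held 88.5% to 96.5% of the summed counts of the 8 genes in the 6 retina libraries and 30.1% to 39.2% in the 5 cortex libraries, a share that does not depend on library scaling. Cdh5 held 0.142% to 0.622% of them in the retina and 16.5% to 30.7% in the cortex. Cldn5 held 2.84% to 8.97% in the retina and 2.38% to 3.96% in the cortex. On the authors' deposited FPKM, which is per length, Kdr ranked first and Cldn5 second in all 6 retina libraries. In all 5 cortex libraries Cdh5 ranked first, at 1.19 to 6.95 FPKM, and Kdr second, at 0.559 to 3.69 FPKM. In cortex Ythdf2 IP replicate 1 the gap was small, with Cdh5 at 1.19 and Kdr at 1.18 FPKM.

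**Figure D1:**
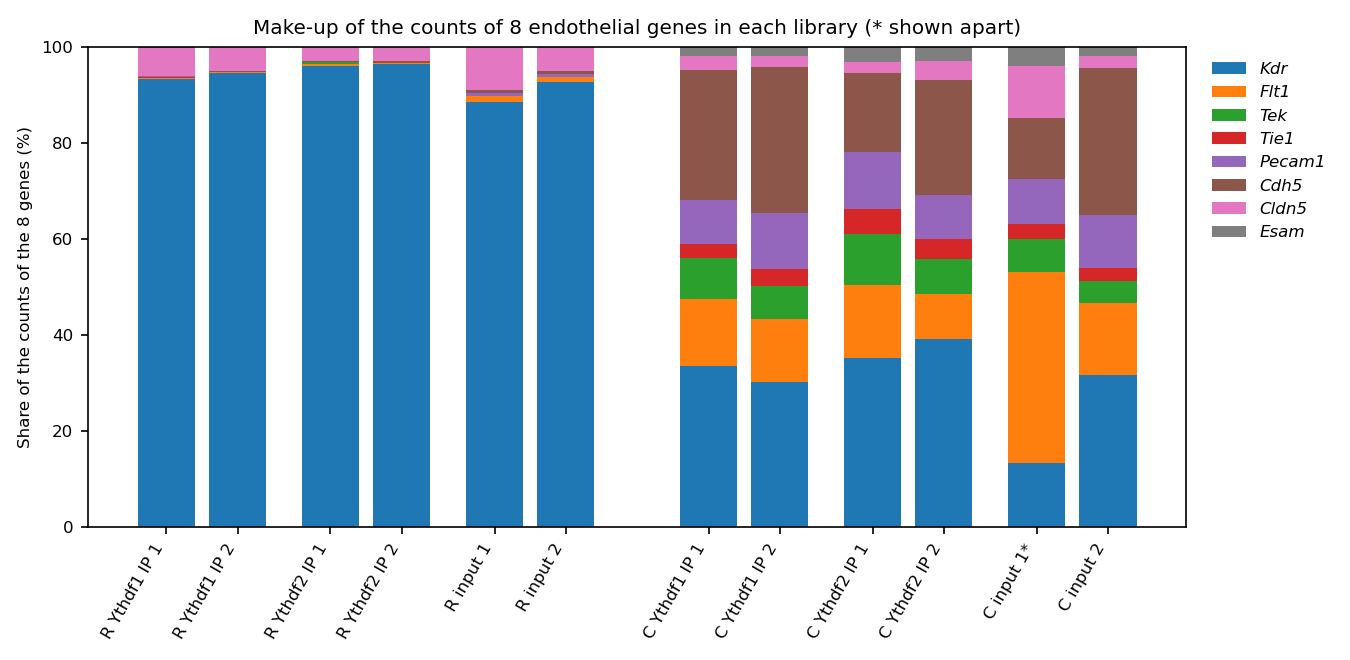
Stacked bars give the share (%) of each gene in the summed counts of the 8 endothelial genes, 1 bar per library, with P0 retina (R) left of E12.5 cortex (C) and the library labelled cortex input replicate 1 marked by a star. Kdr fills 88.5% to 96.5% of the retina bars and 30.1% to 39.2% of the 5 cortex bars without a star.

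Set against cortex on TMM-scaled counts, the retina IPs had more Kdr and Cldn5, and the other 6 genes were called lower in retina in the inputs and in both IPs, except Esam in the Ythdf1 IPs. In such bulk samples fewer endothelial cells and less of these RNAs per cell cannot be told apart. Kdr had 169.2 and 168.8 CPM in the retina Ythdf1 IPs, against 10.4 and 7.67 in the cortex Ythdf1 IPs. It had 91.9 and 93.2 CPM in the retina Ythdf2 IPs, against 7.05 and 13.01 in the cortex Ythdf2 IPs. The retina inputs had 39.3 and 41.5 CPM, against 13.7 in the cortex input. On CPM every retina library was above every one of the 5 cortex libraries. On the deposited FPKM the retina inputs, at 2.66 and 3.05, were below the cortex input, at 3.34, and cortex Ythdf2 IP replicate 2, at 3.69. By edgeR's quasi-likelihood test Kdr was higher in retina by a log2 fold change of 4.22 in the Ythdf1 IPs (SE 0.385, 18.6-fold) and by 3.20 in the Ythdf2 IPs (SE 0.366, 9.20-fold), with adjusted p-values at or below 1.7e-05. In the inputs the log2 fold change was 1.57 (SE 0.444, 2.96-fold, adjusted p = 0.0208). The input difference depends on the scaling: raw counts were 997 and 1037 in the retina inputs and 1068 in the cortex input, and on log2(FPKM + 1) the difference was -0.17 with an adjusted p of 0.78. It was 1.00 with an adjusted p of 0.252 when the library set apart was included.

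Cldn5, the barrier claudin, was the other gene that was higher in retina. It had 10.5 and 9.06 CPM in the retina Ythdf1 IPs, against 0.921 and 0.614 in the cortex Ythdf1 IPs. The retina Ythdf2 IPs had 2.82 and 2.74 CPM, against 0.479 and 1.32 in the cortex Ythdf2 IPs. The retina inputs had 3.98 and 2.28 CPM, against 1.09 in the cortex input. In each pair the groups did not overlap on CPM. On the deposited FPKM only the Ythdf1 IPs kept apart. Cortex Ythdf2 IP replicate 2, at 2.37 FPKM, was above both retina Ythdf2 IPs, at 1.60 and 1.20. The cortex input, at 1.68 FPKM, lay between the retina inputs, at 1.71 and 1.06. The log2 fold change was 3.63 (SE 0.521, adjusted p = 0.000127) in the Ythdf1 IPs, 1.59 (SE 0.483, adjusted p = 0.0272) in the Ythdf2 IPs and 1.52 (SE 0.601, adjusted p = 0.088) in the inputs. With all 12 libraries the Ythdf1 IP value had an adjusted p of 0.0529 and the input value turned to -1.83 (adjusted p = 0.26), and on log2(FPKM + 1) the input value was -0.18. The call in the Ythdf2 IPs was lost without cortex Ythdf2 IP replicate 1 (1.08, adjusted p = 0.187), retina Ythdf2 IP replicate 1 (adjusted p = 0.115) or retina Ythdf2 IP replicate 2 (adjusted p = 0.103).

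Flt1, the second VEGF receptor, went the other way from Kdr. It had 7 and 4 counts in the retina Ythdf1 IPs, 7 and 4 in the retina Ythdf2 IPs and 14 and 12 in the retina inputs. The cortex held 153 and 55 counts in the Ythdf1 IPs, 141 and 285 in the Ythdf2 IPs and 501 in the input. Flt1 was lower in retina by log2 fold changes of -4.12 (SE 0.534) in the Ythdf1 IPs, -3.25 (SE 0.525) in the Ythdf2 IPs and -3.62 (SE 0.527) in the inputs, with adjusted p-values of at most 0.000374. No retina library reached the lowest cortex level of Flt1. The calls in the Ythdf1 and the Ythdf2 IPs were lost in some alternative analyses.

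The angiopoietin receptors were close to absent from the retina libraries. Tek had 3 and 0 counts in the retina Ythdf1 IPs, 5 and 0 in the retina Ythdf2 IPs and 0 in both retina inputs, against 95 and 28 in the cortex Ythdf1 IPs, 99 and 223 in the cortex Ythdf2 IPs and 157 in the cortex input. Tie1 had 3 counts in retina Ythdf1 IP replicate 1 and 0 in the 5 other retina libraries, against 32 and 15 in the cortex Ythdf1 IPs, 47 and 124 in the cortex Ythdf2 IPs and 92 in the cortex input. Against a floor of 3 counts per library, Tek was at least 16.8-fold lower and Tie1 at least 9.87-fold lower in retina input than in cortex input. Both were called lower in all 3 comparisons of retina with cortex, with adjusted p-values of 0.00143 to 0.0202. Some alternative analyses lost the call of Tek in the Ythdf1 and the Ythdf2 IPs, and that of Tie1 in the Ythdf1 IPs and the inputs.

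The adhesion genes of endothelial junctions were also low in retina. Cdh5 had 7 and 11 counts in the retina Ythdf1 IPs, 3 and 7 in the retina Ythdf2 IPs and 7 and 6 in the retina inputs, against 300 and 126 in the cortex Ythdf1 IPs, 152 and 732 in the cortex Ythdf2 IPs and 1035 in the cortex input. Its log2 fold change was -4.47 (SE 0.545) in the Ythdf1 IPs, -4.25 (SE 0.578) in the Ythdf2 IPs and -5.66 (SE 0.607) in the inputs, the last being 50.6-fold lower. Pecam1 had 11 and 0 counts in the retina Ythdf1 IPs, 0 in both retina Ythdf2 IPs and 7 in each retina input, against 103 and 48 in the cortex Ythdf1 IPs, 110 and 281 in the cortex Ythdf2 IPs and 368 in the cortex input. Pecam1 was lower by log2 fold changes of -3.76 (SE 0.797) in the Ythdf1 IPs and -4.06 (SE 0.836) in the inputs. It was at least 15.5-fold lower in the Ythdf2 IPs. Some alternative analyses lost the Cdh5 call in the Ythdf1 IPs and the Pecam1 calls in the Ythdf1 IPs and the inputs.

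Esam, an adhesion molecule of endothelial tight junctions, had 6 and 0 counts in the retina Ythdf1 IPs and 0 in the 4 other retina libraries. The cortex held 21 and 8 counts in the Ythdf1 IPs, 29 and 91 in the Ythdf2 IPs and 64 in the input. It was called lower in the Ythdf2 IPs (at least 4.61-fold) and in the inputs (at least 6.87-fold), but not in the Ythdf1 IPs (-2.21, SE 1.23, adjusted p = 0.19). Each of these calls was lost in some alternative analyses.

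In all, 1 member was called higher and 6 lower between the inputs, 2 higher and 5 lower between the Ythdf1 IPs, and 2 higher and 6 lower between the Ythdf2 IPs. Of 20278 genes tested, 8.82% were called higher and 11.1% lower between the inputs, 13.1% and 15.2% between the Ythdf1 IPs, and 10.1% and 11.2% between the Ythdf2 IPs. All 8 members passed the filter on low counts, 6 of them through the cortex libraries. The median log2 fold change of the members was -4.86, -3.82 and -4.10 in the inputs, Ythdf1 IPs and Ythdf2 IPs, against -0.18, -0.31 and -0.32 over all genes. With genes at 0 in retina entered at their bounds, the members' medians were -3.46, -3.82 and -3.00.

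**Figure D2:**
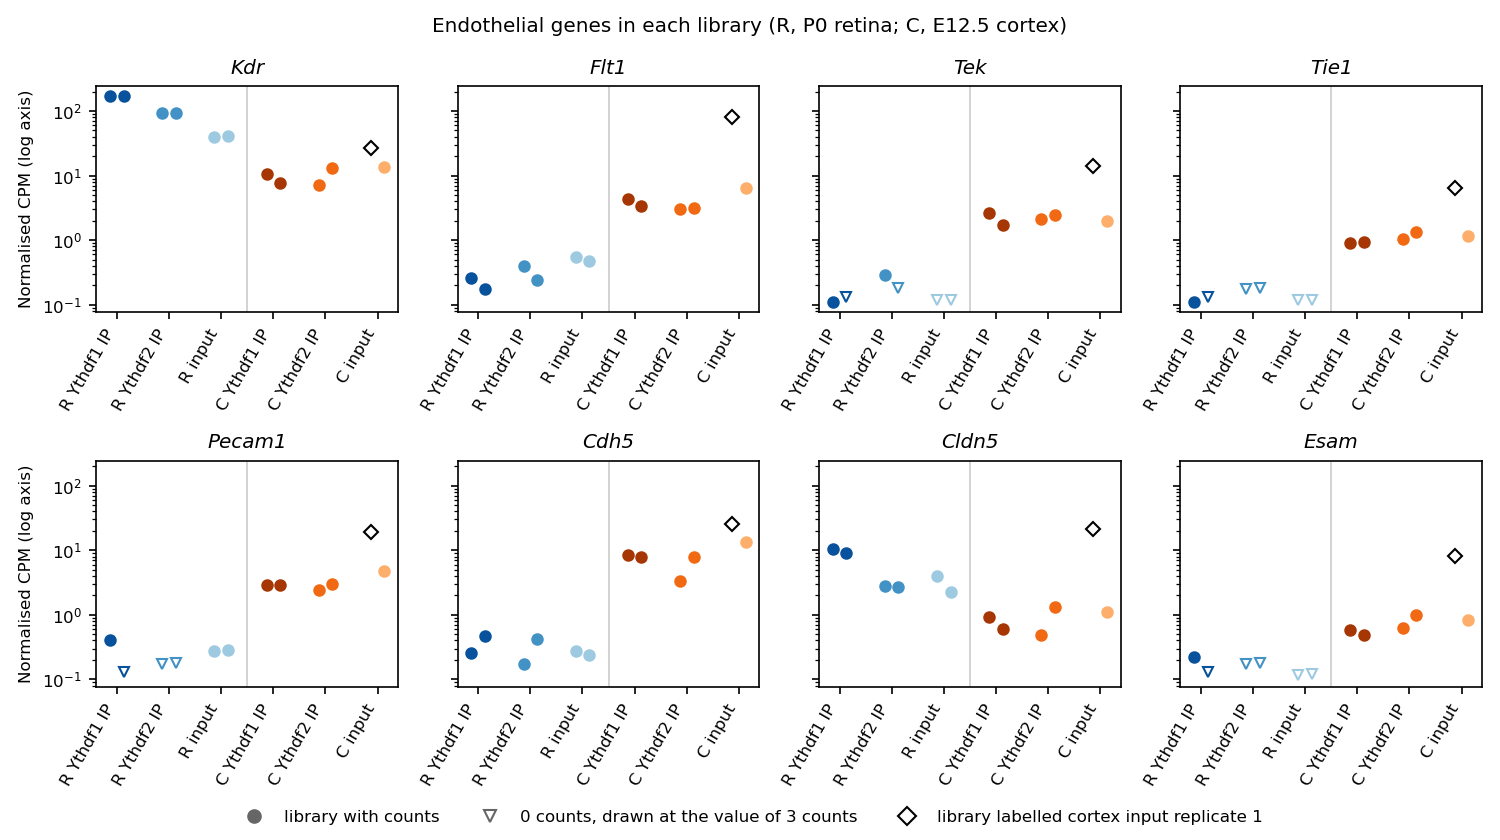
Each panel gives the normalised CPM of 1 endothelial gene on a log axis, 1 point per library, with P0 retina (R) left of E12.5 cortex (C); open triangles are libraries with 0 counts, drawn at the value of 3 counts, and the open diamond is the library labelled cortex input replicate 1. Kdr and Cldn5 sit higher in retina, and the 6 other genes lie at or under 0.551 CPM there.

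**Figure D3:**
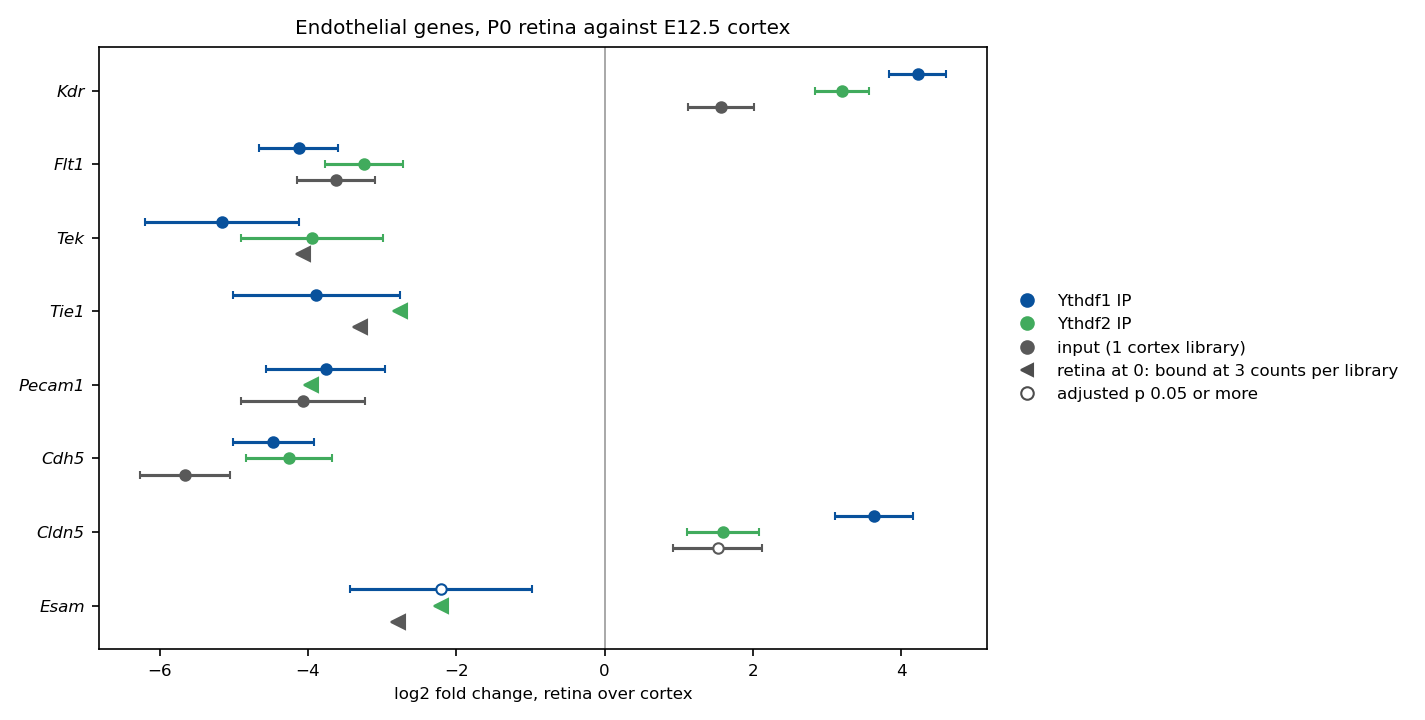
Points give the log2 fold change of retina over cortex for each gene with its standard error, in the Ythdf1 IPs, the Ythdf2 IPs and the inputs; filled points have an adjusted p under 0.05, and triangles are bounds for genes at 0 in retina. Kdr and Cldn5 lie right of 0, although their input values turn to -0.17 and -0.18 on log2(FPKM + 1), and the 6 other genes lie left of it.

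Other vascular genes were examined in the same comparisons, for which the shares over all genes are given above. Of 26 further endothelial markers, 16 were called lower and 1 higher in retina input than in cortex input, while 19 and 1 were so called between the Ythdf1 IPs and 15 and 1 between the Ythdf2 IPs. Between 12 and 16 of the 26 were at 0 in each retina library, and none in the 5 cortex libraries. Markers at 0 in every retina library passed the filter on low counts through the cortex libraries. They could only be called lower in retina, so the counts of calls describe these genes and are not a separate test. The transcription factor genes Erg and Tal1 had 0 counts in the retina inputs, against 203 and 187 in the cortex input. The 1 gene called higher was Dll4, a Notch ligand, with 286 counts in the retina inputs, against 32 in the cortex input (log2 fold change 3.78, SE 0.567, adjusted p = 0.000281). Which cells the Dll4 counts came from was not tested. Dll4 was also higher in the retina Ythdf1 IPs (4.84, SE 0.447) and Ythdf2 IPs (3.59, SE 0.405).

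Among 12 ligands, receptors and partners of the VEGF and angiopoietin pathways, 5 were called lower and 0 higher in retina input, against 11.1% lower and 8.82% higher over all genes; 6611 genes had an unadjusted p under 0.05 there. Nrp2, a co-receptor for VEGF, had 88 counts in the retina inputs, against 2420 in the cortex input (log2 fold change -4.14, SE 0.372), and Nrp1 had 100, against 862 (-2.47, SE 0.415). Vegfa, the ligand of Kdr and Flt1, was higher in the retina Ythdf2 IPs than in the cortex Ythdf2 IPs (1.66, SE 0.311, adjusted p = 0.00129). Of 14 barrier genes tested, 5 were lower and 2 higher in retina input. The higher ones were Slc2a1, a glucose transporter gene (1.92, SE 0.502), and Spock2 (2.87, SE 0.462), and their source cells were not tested. Foxf2 and Foxq1, transcription factor genes, had 0 counts in the retina inputs, against 85 and 124 in the cortex input. Of 12 junction and adhesion partners, 5 were lower and 0 higher in retina input, with Afdn at -2.48 (SE 0.418). Between the IPs, 4 barrier genes were lower in retina and 2 higher with Ythdf1, and 2 lower and 4 higher with Ythdf2. Of the junction partners, 3 were lower and 3 higher with Ythdf1, and 4 lower and 1 higher with Ythdf2.

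Markers of other cell types were examined between the same libraries. As above, any of them at 0 in every retina library passed the filter through the cortex and could only be called lower in retina. Of 10 pericyte genes tested, 8 were lower and 0 higher in retina input, and Abcc9, a channel subunit of pericytes, had 0 counts there, against 232 in the cortex input. Erythroid genes summed to 0.647 to 1.48 CPM in the retina libraries, with 8 or 9 of 12 at 0, against 396 to 1825 CPM in the 5 cortex libraries; 10 of 11 tested were lower in retina input. Meningeal and fibroblast genes summed to 13.1 to 59.9 CPM in retina and 70.4 to 563.9 in cortex, with 8 of 10 lower in retina input. Microglial genes summed to 4.602 to 10.2 CPM in retina and 7.08 to 10.7 in cortex, with 0 of 11 called in the inputs. The part of these cell types in the differences of the 8 members was not tested.

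**Figure D4:**
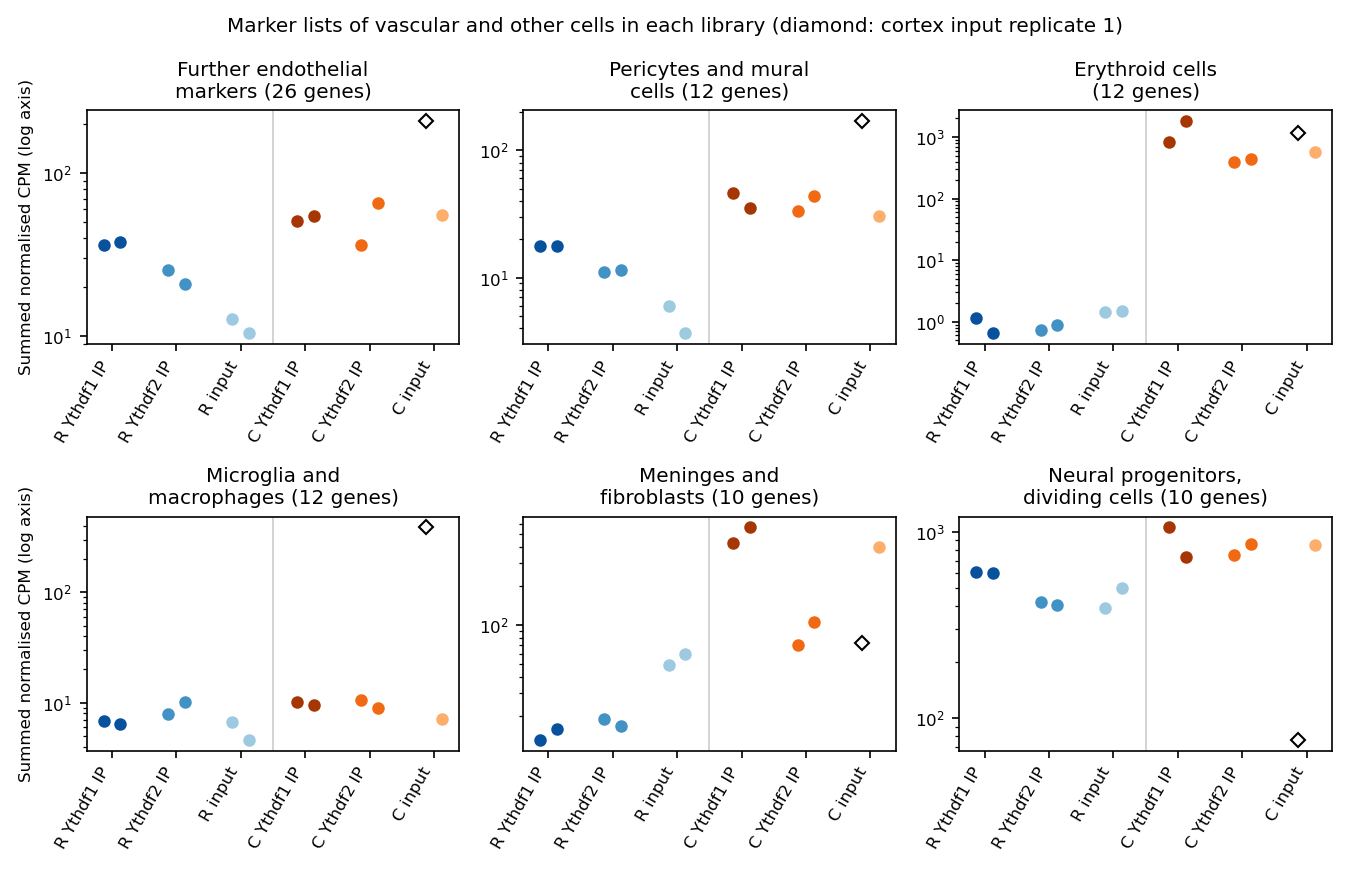
Each panel gives the summed normalised CPM of a marker list on a log axis, 1 point per library, with P0 retina (R) left of E12.5 cortex (C) and the library labelled cortex input replicate 1 as an open diamond. Erythroid genes are at most 1.48 CPM in retina and at least 396 CPM in the 5 other cortex libraries, and further endothelial markers are 10.4 to 38.1 CPM in retina and 36.2 to 65.6 CPM there.

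Within the retina, Kdr was higher in both IPs than in input. From the levels given above it averaged 169 ± 0.267 CPM in the Ythdf1 IPs and 40.4 ± 1.58 in the inputs (SD, n = 2 each), a log2 fold change of 2.07 (SE 0.349, 4.19-fold, adjusted p = 0.000553). The Ythdf2 IPs averaged 92.5 ± 0.906 CPM (SD, n = 2), a log2 fold change over input of 1.20 (SE 0.341, 2.29-fold, adjusted p = 0.0286). Both replicates of each IP were above both inputs. The Ythdf1 call stood in every alternative analysis run, with log2 fold changes of 1.77 to 2.28 and adjusted p-values of at most 0.0356. The Ythdf2 call was lost with all 12 libraries (adjusted p = 0.294) and with 1 library fewer: retina Ythdf2 IP replicate 1 or 2 (0.144 each), retina input replicate 1 (0.0579), or retina Ythdf1 IP replicate 1 (0.0604) or 2 (0.0603), which enter through the shared estimate of spread.

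Cldn5 was called higher than input in the retina Ythdf1 IPs. It averaged 9.80 ± 1.05 CPM in the Ythdf1 IPs and 3.13 ± 1.20 in the inputs (SD, n = 2 each), a log2 fold change of 1.65 (SE 0.464, 3.13-fold, adjusted p = 0.0148). The Ythdf2 IPs averaged 2.78 ± 0.0559 CPM, a log2 fold change over input of -0.17 (SE 0.473, adjusted p = 0.908), and lay between the 2 inputs. The Ythdf1 call had an adjusted p of 0.303 with all 12 libraries, 0.0821 without retina input replicate 2, 0.101 without retina Ythdf1 IP replicate 1 and 0.0568 without retina Ythdf1 IP replicate 2. A direct comparison of the retina antibodies, added after the values were seen, gave Cldn5 1.82 higher in the Ythdf1 IPs on the log2 scale (SE 0.474, adjusted p = 0.0345), where 2.14% of all genes were called higher with Ythdf1 and 3.88% lower. This call was lost when any of the 4 retina IPs, or cortex Ythdf1 IP replicate 1, was left out (adjusted p 0.0594 to 0.219). Kdr was 0.87 higher with Ythdf1 than with Ythdf2 on that scale (SE 0.338, adjusted p = 0.14).

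The 6 other genes had too few retina reads to measure enrichment. Flt1 had 11 counts over the Ythdf1 IPs and 26 over the inputs, or -1.24 as log2 IP over input (SE 0.574, adjusted p = 0.126), with both IPs under both inputs. Cdh5 had 18 counts in the Ythdf1 IPs, 10 in the Ythdf2 IPs and 13 in the inputs. Pecam1 had 0 counts in the Ythdf2 IPs and 14 in the inputs, at least 1.58-fold lower, with an adjusted p of 0.0669. Of the 8 genes, 2 were called higher with Ythdf1 and 1 with Ythdf2, and none lower. Over all genes 13.7% were called higher and 13.4% lower with Ythdf1, and 5.82% higher and 7.64% lower with Ythdf2. By unadjusted p under 0.05, 7667 genes passed with Ythdf1 and 5449 with Ythdf2.

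In the cortex no member was called in either IP against input, nor between the antibodies, where 0.671% of all genes were called higher with Ythdf1 and 0.0345% lower. Kdr averaged 9.04 ± 1.94 CPM in the Ythdf1 IPs and 10.03 ± 4.21 in the Ythdf2 IPs (SD, n = 2 each), against 13.7 in the single input. The log2 fold change was -0.59 (SE 0.408) with Ythdf1 and -0.44 (SE 0.407) with Ythdf2. Cdh5 had the lowest value of the 8 genes, -1.23 with Ythdf2 (SE 0.501, unadjusted p = 0.0266, adjusted p = 0.162). Its 2 Ythdf2 IPs, at 3.31 and 7.95 CPM, were both below the input at 13.2. Flt1 was at -1.05 with Ythdf2 (SE 0.486, unadjusted p = 0.0456, adjusted p = 0.224), and Tek, the highest, at 0.19 (SE 0.875). Over all genes 1.55% were called higher and 2.17% lower with Ythdf1, and 2.48% and 5% with Ythdf2, fewer than in the retina. The cortex comparisons had a single input library and the retina comparisons 2, so these shares are not directly comparable. With cortex input replicate 1 in place of replicate 2, 8 members were called lower with Ythdf1 and 7 with Ythdf2, so the choice of input library decides these values.

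**Figure D5:**
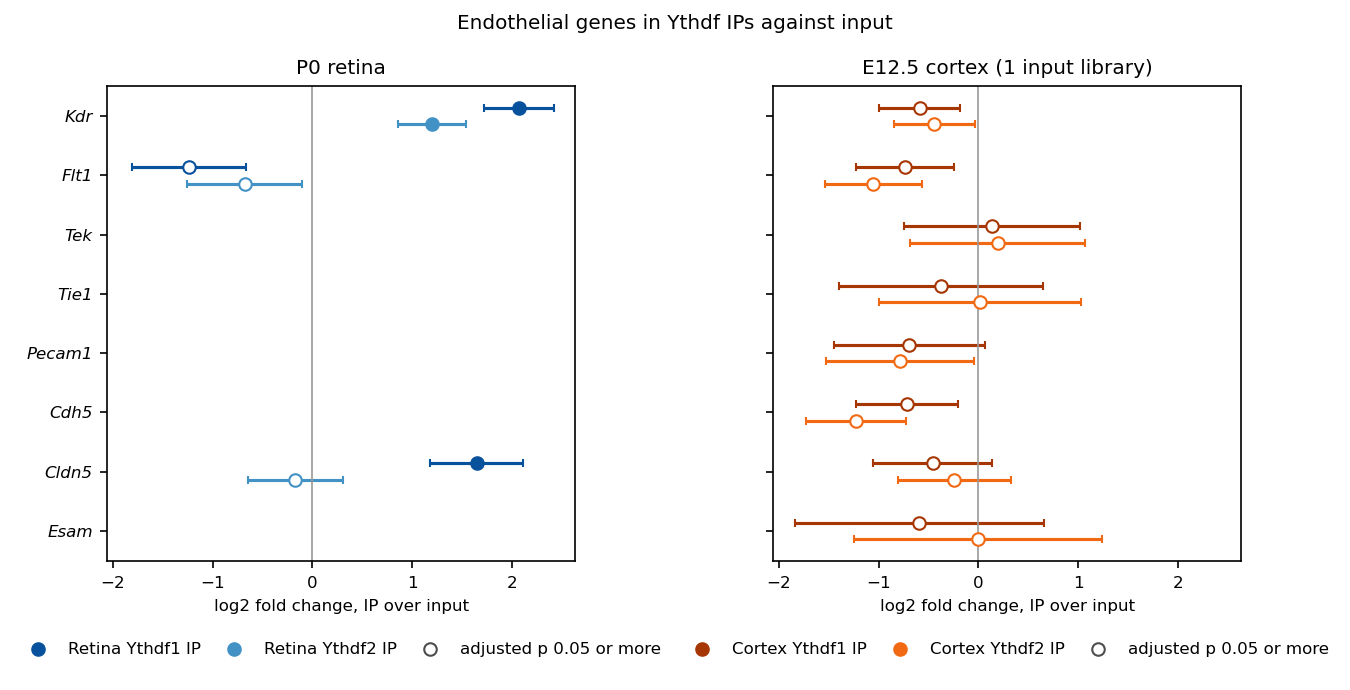
Points give the log2 fold change of IP over input with its standard error for the Ythdf1 and Ythdf2 IPs, in P0 retina on the left and in E12.5 cortex on the right; filled points have an adjusted p under 0.05, and genes with under 20 summed counts in both groups are left out. Kdr with both antibodies and Cldn5 with Ythdf1 are filled in retina, and no point is filled in cortex.

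The difference between the tissues in IP over input was tested directly. For Kdr with Ythdf1 it was 2.65 on the log2 scale, retina minus cortex (SE 0.526, adjusted p = 0.0126), with 1.11% of all genes called higher in retina and 2.41% lower. Its adjusted p was 0.127 with all 12 libraries, 0.0698 without cortex Ythdf1 IP replicate 2, 0.0627 without retina Ythdf1 IP replicate 1 and 0.0643 without retina Ythdf1 IP replicate 2, with differences of 2.46 to 3.22. For Kdr with Ythdf2 the difference was 1.64 (SE 0.525, adjusted p = 0.157), with 0.444% of genes called higher and 0.473% lower. Cldn5 differed by 2.11 with Ythdf1 (SE 0.743, adjusted p = 0.131) and by 0.07 with Ythdf2 (SE 0.735). The 6 other genes had too few retina counts for this test to be informative.

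Other genes of the pathway were examined in the retina IPs. Of the 12 VEGF and angiopoietin genes, 3 were higher and 0 lower in the Ythdf1 IPs than in input, against 13.7% and 13.4% over all genes. These were Plxnd1, a semaphorin receptor of vessels (log2 fold change 1.81, SE 0.325, adjusted p = 0.000857), Nrp2 (1.48, SE 0.326) and Angpt2, a Tek ligand (1.79, SE 0.565). With Ythdf2 2 were higher and 1 lower, against 5.82% and 7.64% over all genes. Nrp2 (2.36, SE 0.331) and Vegfa (1.07, SE 0.309) were higher and Vegfb, a ligand of Flt1, was lower (-1.79, SE 0.424). In the cortex Plxnd1 was the single gene of the 12 called with Ythdf1 (1.87, SE 0.422, adjusted p = 0.0228), and none was called with Ythdf2, where 4307 of all genes had an unadjusted p under 0.05.

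Of the 26 further endothelial markers, 3 were higher and 1 lower in the retina Ythdf1 IPs than in input, 11.5% and 3.85% of the list, which is no more than the 13.7% and 13.4% over all genes. Dll4 had 1301 counts in the Ythdf1 IPs, against 286 in the inputs (log2 fold change 2.19, SE 0.38, adjusted p = 0.000666). S1pr1, a receptor for sphingosine-1-phosphate, had 248, against 90 (1.44, SE 0.399). Cd34 had 0, against 23. With Ythdf2, Dll4 was the single marker called (1.51, SE 0.375, adjusted p = 0.0137).

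Most pericyte, junction and barrier genes were not called in the retina IPs. Of 10 pericyte genes, 3 were higher and 1 lower than input with Ythdf1, and 2 and 1 with Ythdf2, against the shares over all genes just given. Pdgfrb, the receptor through which pericytes are recruited, was higher with Ythdf1 (2.55, SE 0.424) and Ythdf2 (1.74, SE 0.423), as was Notch3 (1.95, SE 0.353, and 1.46, SE 0.357). Rgs5, a pericyte regulator of G-protein signalling, was lower with Ythdf1 (-2.14, SE 0.735), with 6 counts in the IPs, against 27 in the inputs, and had 0 counts with Ythdf2. Of 12 junction partners, 3 were higher with Ythdf1 and 2 with Ythdf2, and 0 were lower with either. Ctnnb1 (beta-catenin), which binds the tail of Cdh5, was higher with Ythdf1 (1.32, SE 0.307) and with Ythdf2 (1.71, SE 0.31). Of 14 barrier genes, 1 was higher and 2 lower with each antibody. The higher ones were Mfsd2a, a lipid transporter of barrier endothelium, with Ythdf1 (2.92, SE 1.00) and Spock2 with Ythdf2 (2.11, SE 0.334). Bsg was lower with Ythdf1 (-1.54, SE 0.369) and Ythdf2 (-1.77, SE 0.373). Itm2a was lower in both retina IPs, at -2.20 (SE 0.523) and -2.67 (SE 0.553), and in both cortex IPs, at -2.90 (SE 0.592) and -3.63 (SE 0.587).

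Across the 11 libraries Cldn5 followed Kdr and the 6 other members did not. On log2 CPM, Kdr correlated with Cldn5 at r = 0.936 and with the 6 other members at r = -0.917 to -0.790, and those 6 correlated with each other at 0.913 to 0.983. These values mostly restate the gap between the tissues, which form separate clusters. Another 11885 genes with enough counts were compared with the mean of the 8 members' standardised log2 CPM. That mean followed the 6 genes lower in retina (r = 0.922 to 0.981) and ran against Kdr (r = -0.748) and Cldn5 (r = -0.615). The gene most like it was Igfbp5, a binding protein for insulin-like growth factors (r = 0.991 over 11 libraries and 0.992 over the 8 IPs). Polr1a, Dnmt1, Ptx3, Chd4, Abca9, Atf3, Akap12, Ctnnd1 and Cavin1 followed, at r = 0.974 to 0.990.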

How the data were processed

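RIP-seq libraries were made, per the labels, with the EZ-Magna RIP kit and a stranded TruSeq kit. Mapping with STAR 2.5, counting with HTSeq and the build GRCm38 come from the submitters' processing notes; the annotation release and the counting's strand setting were not given in the sources used here. The authors deposited raw read counts per gene and, in a second table, FPKM values, whose gene length is not stated. Of 52550 Ensembl identifiers, 52403 matched GENCODE M21, which gave symbols and coordinates. Of the 8 members only Cdh5 overlaps another gene, a transcript with 0 counts and no shared exon.

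From the counts, edgeR 4.0.16 (filterByExpr with minimum count 10 and minimum total 15, TMM, robust quasi-likelihood fit; limma 3.58.1, R 4.3.3) was fitted to 11 libraries in 6 groups, with 5 residual degrees of freedom. P-values were two-sided and adjusted by Benjamini-Hochberg over 20278 genes, and genes were called at an adjusted p under 0.05. There were 9 planned comparisons, and 2 between antibodies were added later (11 in all). A fold against a group at 0 is a bound against 3 counts per library. Floors reflect counting error alone. The fit was tested on simulated counts.

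The 8 members and the other 12 gene lists were chosen with earlier results of these data known. Beside the members, the text names up to 3 called genes per list and direction, those with the smallest p in the comparisons described. It also names 4 genes that check the libraries. Last are the 10 genes whose log2 CPM had the highest Pearson correlation with the mean of the members' standardised log2 CPM. Alternatives were DESeq2 1.42.0, other scalings, no filter, limma on log2(FPKM + 1) and log2(FPKM + 0.1), other library sets and replicate blocks. The motif search used the coding strand only, because the molecules are RNA.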

Additional observations from a re-analysis of the deposited data

Results flagged for a closer look

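The difference between tissues in Kdr recovery with Ythdf1 was 2.65 on the log2 scale (retina minus cortex) with an adjusted p of 0.0126 in the test of the difference itself. This call rests on a single cortex input library. Its adjusted p was 0.127 with all 12 libraries and 0.0627 to 0.0698 without retina Ythdf1 IP replicate 1, retina Ythdf1 IP replicate 2 or cortex Ythdf1 IP replicate 2.

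The library labelled cortex input replicate 1, which entered the alternative analyses only, held all 8 genes at higher normalised levels than cortex input replicate 2. In CPM it had 26.9 of Kdr, 81.3 of Flt1 and 14.2 of Tek, against 13.7, 6.40 and 2.01 in cortex input replicate 2. It had 6.36 of Tie1, 18.9 of Pecam1 and 25.95 of Cdh5, against 1.18, 4.70 and 13.2. It had 21.7 of Cldn5 and 8.21 of Esam, against 1.09 and 0.818. Its scaling factor of 0.209 was the lowest of the 12 libraries, so raw counts read differently: Kdr had 203 counts there and 1068 in replicate 2, and Flt1 614 and 501. Flt1 took 39.9% of the counts of the 8 genes in that library, against 14.9% in replicate 2.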

How the results depend on the processing

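Kdr over input in the retina Ythdf1 IPs kept its call in every alternative, as did Kdr in retina over cortex for both IPs. With all 12 libraries the members called were 1 higher in the retina Ythdf1 IPs over input, 0 with Ythdf2, 0 higher between inputs, 1 higher between Ythdf1 IPs, 1 higher and 3 lower between Ythdf2 IPs, 0 for the Ythdf1 tissue difference and 0 between antibodies in retina. Tek turned to -1.85 (Ythdf1) and -1.79 (Ythdf2) and Tie1 to -1.623 (Ythdf2) over cortex input, and Cldn5 to -1.83 between inputs. With cortex input replicate 1 in place of replicate 2, 8 (Ythdf1) and 7 (Ythdf2) members were called lower over cortex input, with Tek at -2.76 and -2.63 and Tie1 at -2.42; Cldn5 was -2.73 between inputs, 1 member was lower in the retina Ythdf1 IPs, 0 were higher in the retina Ythdf2 IPs and between inputs, and 4 were called for each tissue difference.

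On log2(FPKM + 1), members called were 1 higher (retina Ythdf1) and 0 (retina Ythdf2) over input, 5 and 1 lower over cortex input, 0 higher between inputs, 0 lower between Ythdf1 IPs, 1 higher between Ythdf2 IPs, 4 for the Ythdf1 tissue difference, 0 between antibodies in retina and 3 lower in cortex. On log2(FPKM + 0.1) these were 1, 0, 4 lower for cortex Ythdf1, 0 between inputs, 1 between Ythdf2 IPs, 0 between retina antibodies and 1 lower in cortex. Sign changes on these scales (+ 1, then + 0.1) were Kdr -0.17 and -0.22 and Cldn5 -0.18 and -0.29 between inputs, Cldn5 0.016 and 0.035 in the retina Ythdf2 IPs, Tek -0.47 and -1.11 (cortex Ythdf1), Tie1 -0.032 and -0.13 (cortex Ythdf2), and, between cortex antibodies, Flt1 -0.23 and -0.71, Pecam1 -0.44 and -0.98, and Cdh5 -0.46 and -0.58.

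With protein-coding totals Cldn5 was 0.21 (retina Ythdf2) and 0.074 (cortex Ythdf2), Esam 0.31 (cortex Ythdf2) and Pecam1 -0.036 (cortex antibodies). DESeq2 called 1 member lower in the retina Ythdf2 IPs, as did edgeR without a filter, which also gave 2 higher between retina antibodies and Tie1 at -0.028 (cortex Ythdf2). DESeq2's test and its size factors gave Esam 0.086 and 0.089 (cortex Ythdf2) and Cldn5 -0.036 and -0.045 (Ythdf2 tissue difference). With only the libraries compared, 0 members were higher between inputs and 1 between Ythdf2 IPs. The cause of these changes was not tested.

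Replicate numbers were taken to share only a number: deviations of same-numbered libraries correlated at -0.148 to 0.103. With a replicate block Tek turned to -0.32 and -0.14 and Tie1 to -0.068 over cortex input, and no count of members moved; Kdr with Ythdf1 in retina stayed called. With a replicate block within each tissue, added after seeing the data, 0 members were higher and 3 lower between inputs, with Esam at 0.083 (cortex Ythdf2) and Cldn5 at -0.066 (Ythdf2 tissue difference).

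Leaving out 1 library gave 1 to 2 members higher and 0 to 1 lower (retina Ythdf1), 0 to 1 higher and 0 to 1 lower (retina Ythdf2), 1 to 2 higher between inputs, 1 to 2 higher between Ythdf2 IPs, 0 to 2 for the Ythdf1 tissue difference and 0 to 1 between retina antibodies. Sign changes without 1 library, as ranges, were Cldn5 -0.52 to 0.28 (retina Ythdf2), Tek -0.30 to 0.40 (cortex Ythdf1), Esam -0.372 to 0.273, Cldn5 -1.175 to 0.275 and Tie1 -0.20 to 0.196 (cortex Ythdf2), Cldn5 -0.446 to 1.004 (Ythdf2 tissue difference), and, between cortex antibodies, Kdr -0.52 to 0.363, Tek -0.523 to 0.211, Cldn5 -0.734 to 0.715 and Pecam1 -0.07 to 0.281. Leaving out cortex input replicate 2 gave no value where cortex input is compared. Between retina and cortex IPs, Tie1, Tek and Esam were also called in some of these fits and not in others. Low counts limit Tek, Tie1 and Esam most, since the retina libraries held at most 6 counts of each.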
